A study of Mus musculus with 8 samples.

Results

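Gkn1, Gkn2 and Gkn3, the 3 mouse gastrokines, and Tff1, Tff2 and Tff3, the 3 trefoil factors, are secreted proteins of the gut surface, and this account follows their mRNA through the cells of 2 pancreatic tumors. The 6 genes were chosen from their measured levels across these same cells, so the levels below are a description and carry no test. They are 6 of the 27775 gene rows in the count table of each tumor. The tumors came from KPC mice, which carry LSL-Trp53R172H/+ and Pdx-1-Cre among their alleles, so that mutant Trp53 is switched on where the Pdx1 promoter drives Cre, in the pancreas and neighbouring foregut epithelium. All mice were untreated, and their ages are not given in the sources used here. One tumor was of medium size and 1 of large size, each with 4 technical replicates pooled in 1 table, so a size is 1 sample, nothing here has replicates, and no difference between cells or tumors was tested.

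Trefoil factors are small, disulfide-bonded peptides that are packed into mucus together with gel-forming mucins and help an injured epithelium to close. In the healthy gut, Tff1 is made by the surface (pit) mucous cells of the stomach, Tff2 by gastric neck and Brunner's gland cells, and Tff3 by intestinal goblet cells. Gastrokines share a BRICHOS domain and are products of the gastric surface and neck mucous cells, Gkn2 being known to pair with Tff1. The normal pancreas makes little of either family, and gastric-type mucous genes are known to come on in early pancreatic neoplasia.

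In the GRCm38 genome, which the labels call mm10, each family forms 1 block of neighbouring genes. The gastrokines lie on chromosome 6 within 43.3 kb, with Gkn1 at chr6:87345650-87350942 on the minus strand, Gkn2 at chr6:87373357-87379497 on the plus strand and Gkn3 at chr6:87383256-87388935 on the minus strand. The trefoil factors lie on chromosome 17 within 40.0 kb and all on the minus strand, with Tff3 at chr17:31125306-31129646, Tff2 at chr17:31141049-31144282 and Tff1 at chr17:31161395-31165277. No other protein-coding gene of the GENCODE M21 annotation lies inside either block. The nearest coding neighbours were read at far lower levels, Antxr1 (9.83 kb from the gastrokines) at 9.90 CPM in the medium tumor and Abcg1 (7.32 kb from the trefoil factors) at 4.14. A UMI, or unique molecular identifier, marks 1 captured mRNA molecule, and CPM is the count of a gene's UMIs per 1000000 UMIs of the cells summed. Transcripts of the 6 genes share no run of 25 bases with one another, and with 1 tag read per molecule the values of different genes are counts of molecules, not of length.

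The bases before the starts of the 3 gastrokine genes are shown because these genes were highest in the same cells of the medium tumor. RefSeq's promoter table for GRCm38.p6 held 3 of the 6 genes. Each line gives the 250 bases before the RefSeq start, 5′ to 3′ on the gene's own strand, with matches to GATAA, the core that GATA factors recognise, in capitals on either strand (TTATC is the match on the other strand). The last bases of the Gkn1 and Gkn2 windows lie inside the GENCODE gene models, which start earlier.
Gkn1 (chr6:87350916-87351165, minus strand): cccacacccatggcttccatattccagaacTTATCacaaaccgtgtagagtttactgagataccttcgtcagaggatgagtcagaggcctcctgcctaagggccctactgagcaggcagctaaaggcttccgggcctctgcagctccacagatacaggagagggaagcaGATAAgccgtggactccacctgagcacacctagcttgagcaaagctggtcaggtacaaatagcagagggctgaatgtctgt
Gkn2 (chr6:87373115-87373364, plus strand): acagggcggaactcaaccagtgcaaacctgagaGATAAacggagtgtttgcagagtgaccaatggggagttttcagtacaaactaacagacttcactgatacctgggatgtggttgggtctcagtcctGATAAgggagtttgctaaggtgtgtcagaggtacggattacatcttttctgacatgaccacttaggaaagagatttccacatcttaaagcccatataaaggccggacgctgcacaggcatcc
Gkn3 (chr6:87388936-87389185, minus strand): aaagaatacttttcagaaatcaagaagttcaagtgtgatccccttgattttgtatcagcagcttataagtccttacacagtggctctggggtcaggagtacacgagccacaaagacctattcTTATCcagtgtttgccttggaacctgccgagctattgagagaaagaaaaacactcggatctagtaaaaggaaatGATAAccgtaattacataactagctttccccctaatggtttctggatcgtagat
Each of the 3 windows holds 2 matches to GATAA, which overlap no other motif searched. Of the 32851 promoters in the table, 22.6% held at least 1 match in the same 250 bases and 4.28% held 2 or more. TATAAA, the TATA box, was found in the Gkn2 window alone, 29 bases before the start, and in 12.4% of all promoters, while TGTTTA, a forkhead core, was in none of the 3 windows and in 12.0% of all promoters. A match is a stretch of letters and not a site shown to be bound. Of the GATA factors, Gata6 mRNA was read at 57.1 CPM, Gata5 at 35.0 CPM and Gata4 at 6.45 CPM in cluster 1 of the medium tumor, the cluster where the gastrokines were highest. Gata6 was not highest there, and reached 89.5 CPM in cluster 6. Whether any GATA factor acts on these genes was not tested.

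The medium tumor gave 2812 cells with 20301669 UMIs (median 5456.5 per cell) and the large tumor 1533 cells with 2239012 UMIs (median 1037), so values of the large tumor are less precise. The tumors share 5 cell barcodes. Scrublet called 0 doublets in the medium and 9 (0.587%) in the large tumor, and no cell was removed for it. Clusters were made with the 6 members left out of the genes used and named from marker lists, which gave 2325 epithelial-like cells in clusters 1 to 8 of the medium tumor and 947 in clusters 1, 4, 5, 6, 7 and 8 of the large tumor. Against that name, cluster 8 of the medium tumor carried 3 of 11 epithelial markers, and clusters 5 and 8 of the large tumor carried 10 and 7 of 12 enterocyte genes, such as Fabp1, a fatty acid binding protein of the small intestine. Markers of acinar and endocrine pancreas named no cluster in either tumor. All intervals below are exact 95% intervals that cover counting error only, and neither PCR nor the spread between cells is in them.

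All 6 genes were read mainly in epithelial-like cells of the medium tumor. Gkn1 came to 2513 CPM (2490 to 2536) in epithelial-like cells and 144 CPM (121 to 171) in monocyte/macrophage-like cells. Tff1 followed with 1944 CPM against 43.4 CPM, Gkn3 with 1123 against 67.3, Gkn2 with 830 against 34.8, Tff3 with 690 against 55.4 and Tff2 with 324 against 15.2. Set against all cells outside the epithelial-like class, 6 of 6 members were higher, beside 63.9% of the 7838 genes with at least 200 UMIs, and 5 of 6 were at least 2-fold higher, beside 11.0% of those genes. The member under 2-fold was Tff2, at 1.32-fold (1.21 to 1.45). Cluster 11, an unnamed group of 69 cells with 10 epithelial and 8 macrophage markers, held 434 of the 547 Tff2 UMIs read outside the class, 92.6% of its own in 3 cells. Without it Tff2 was 5.41-fold (4.49 to 6.58) higher in epithelial-like cells than in the other named cells. Over all 6 members the median log2 ratio was 1.75, beside 0.19 over all genes. Leaving out the highest Scrublet scores took the log2 ratio of Tff2 from 0.40 to 3.43 and that of Tff1 from 2.72 to 4.87. With 2697 of 2812 cells left, the clusters were drawn anew and the epithelial-like class went from 2325 to 2054 cells, so the part of the removed cells and that of the new class were not told apart. At resolution 1.2, with all cells kept, the class had 2099 cells and the ratios were 1.35 for Tff2 and 3.11 for Tff1.

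Outside the epithelium some high sums lay in few cells, and others were spread. The mesothelial-like cluster 10 gave 1203 CPM of Tff1, but 1 of its 74 cells held 444 of the 471 UMIs. In the endothelial-like cluster 14, at 1380 CPM of Gkn1, 3 of 39 cells held 81.0% of the UMIs, but 10 of the 39 (25.6%) were high for gastrokines, at 10 or more per 10000 of their UMIs, and the cluster carried 3 epithelial markers. In the unnamed cluster 11 that was so for 22 of 69 cells (31.9%). After thinning to 500 UMIs, Gkn1 was read in 23.1% (11.1 to 39.3) of cluster 14 and 24.6% (15.1 to 36.5) of cluster 11 cells, against 5.88% (3.25 to 9.67) of macrophage-like cells. The part of doublets or mixed cells in these clusters was not tested. Stromal-like cells stood at 108 CPM of Gkn1 and 21.1 CPM of Gkn2, with at most 3 UMIs of Gkn1 in any cell. After every cell was thinned to 2500 UMIs, 23.1% (17.9 to 28.99) of monocyte/macrophage-like cells still had a Gkn1 UMI and 3.78% (1.74 to 7.06) a Tff2 UMI, and shares at or below these are read as background. The median depth was 3516 UMIs in macrophage-like and 5985 UMIs in epithelial-like cells before thinning. In those macrophage-like cells Gkn1 made up 40.1%, Tff1 12.0% and Tff3 15.4% of the members' 332 UMIs, whereas over the whole tumor they made up 33.8%, 25.8% and 9.35%. Of the 51 Tff3 UMIs in macrophage-like cells, 20 were in 1 cell. The part of free RNA in any single share was not tested.

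**Figure D1:**
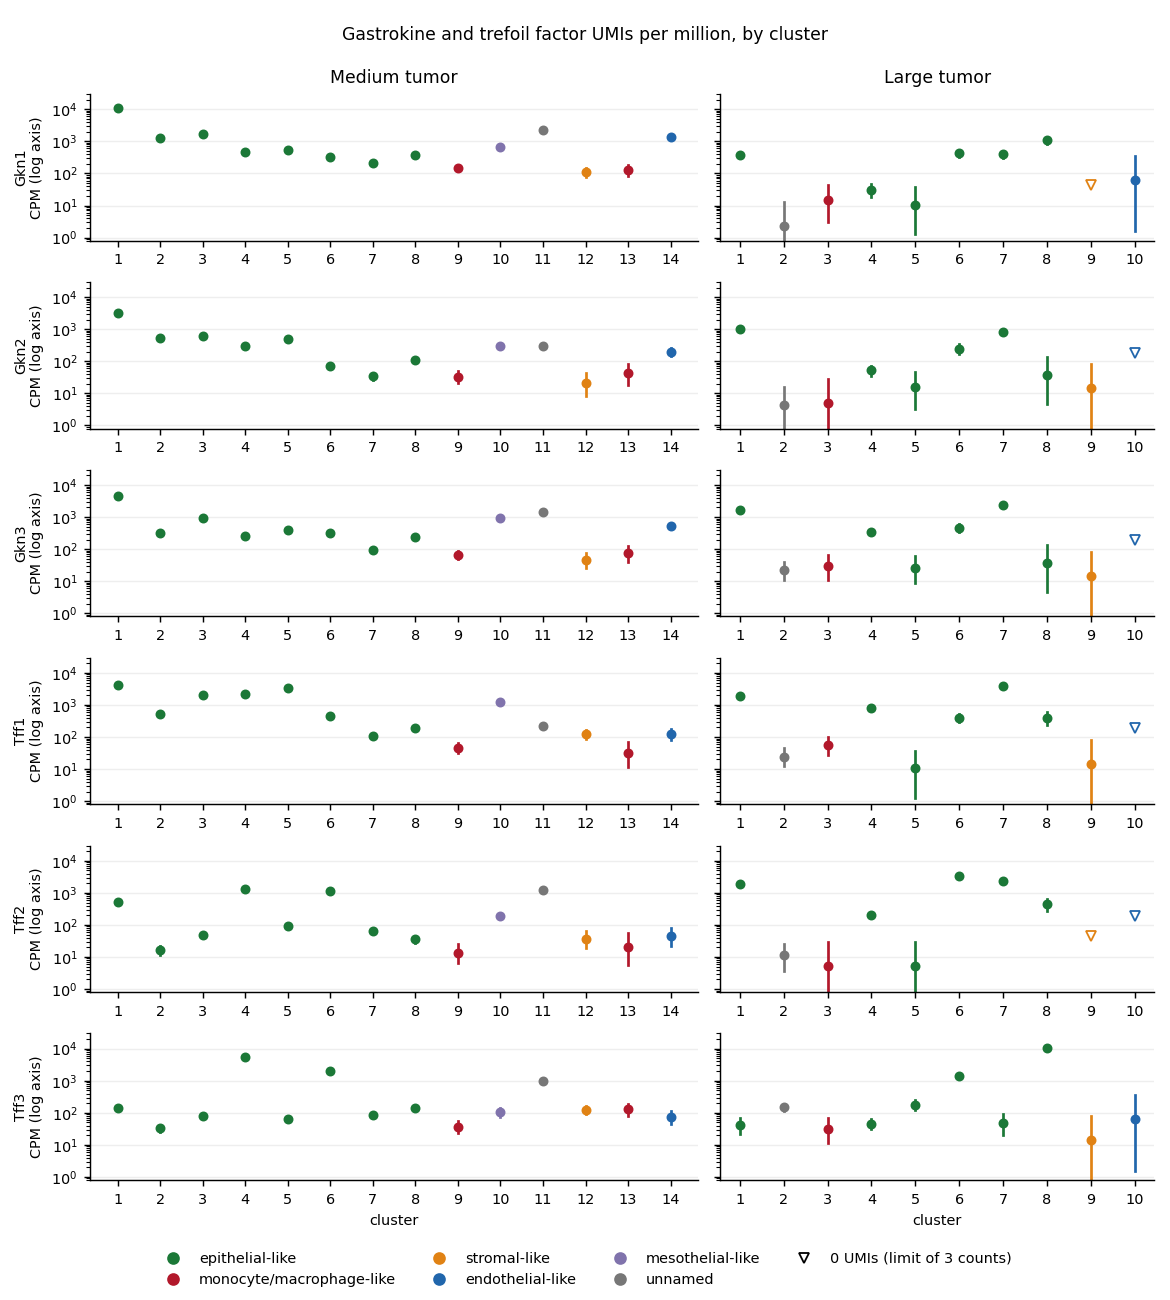
Level of each of the 6 genes (CPM, log axis) in each cluster of the medium tumor (left) and the large tumor (right), as points with exact 95% Poisson intervals, coloured by the class of the cluster, open triangles marking the limit of 3 counts where no UMI was read. In the medium tumor Gkn1 stood at 11156 CPM in cluster 1 against 1713 CPM or less in the other epithelial-like clusters, and Tff3 at 5378 CPM in cluster 4. In the large tumor Tff3 stood at 10792 CPM in cluster 8.

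The gastrokines of the medium tumor peaked together in cluster 1, whose 450 cells were led by Agr2, Prap1, Npy, Mcpt2 and Aqp5. Gkn1 reached 11156 CPM there (11036 to 11278), Gkn3 4674 CPM (4596 to 4753) and Gkn2 3227 CPM (3162 to 3292). With 16.0% of the cells, cluster 1 held 70.0% of all Gkn1, 64.3% of Gkn3 and 62.0% of Gkn2 UMIs. The next epithelial-like cluster was the cycling cluster 3 for each of the 3 genes. Gkn1, Gkn3 and Gkn2 were 6.51-fold (6.33 to 6.70), 5.04-fold and 5.38-fold lower there. Outside that class, the unnamed cluster 11 stood above cluster 3 for Gkn1 and Gkn3, at 2195 and 1496 CPM. The mesothelial-like cluster 10 overlapped cluster 3 for Gkn3, at 942 against 928 CPM. In cluster 7, led by Krt17 and Cldn4, Gkn1 was lowest of the epithelial-like clusters at 209 CPM (189 to 232). That was above the 149 CPM (122 to 179.7) of the macrophage-like cluster 9, and the intervals did not overlap.

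Within cluster 1 the level differed from cell to cell. The median cell had 49.4 Gkn1 UMIs per 10000, the cell at the 90th percentile 369 and the highest 1683. Gkn3 was read in 86.4% of those cells and Gkn2 in 68.4%, with a highest cell of 1799.8 Gkn2 UMIs per 10000 against a median of 3.62. Clusters 7 and 8 gave Gkn1 in 23.2% of cells each (18.0 to 29.1 and 17.9 to 29.3) after thinning to 2500 UMIs. Macrophage-like cells gave 23.1% (17.9 to 28.99), inside both intervals, so no expression is read from that share. The summed Gkn1 level of cluster 8 was higher, at 368 CPM (342 to 397) against 144 CPM in macrophage-like cells. Gastrokine-high cells made up 5.70% of cluster 8 and 1.26% of macrophage-like cells.

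The trefoil factors did not share 1 cluster. Tff1, the pit cell trefoil, was high in 4 clusters, at 4136 CPM in cluster 1, 3517 CPM in cluster 5 (led by Yap1, Dcun1d5, Birc2 and Cldn18), 2180 CPM in cluster 4 and 2106 CPM in cluster 3, the last 2 with overlapping intervals. Tff3, the goblet cell trefoil, was highest in cluster 4 (led by Ly6d, Reg1, Ly6k and Reg3b) at 5378 CPM (5263 to 5494), then in cluster 6 (led by Dmbt1, Lcn2 and Mmp7) at 2025 CPM (1950 to 2101), and stood at 142 CPM or less in the other epithelial-like clusters. Cluster 4 alone held 64.3% of the Tff3 UMIs with 9.96% of the cells. Tff2 was the lowest member, and among epithelial-like clusters it was again highest in clusters 4 and 6, at 1357 CPM (1300 to 1417) and 1122 CPM (1066.5 to 1179), with cluster 1 at 527 CPM. The unnamed cluster 11 lay between them at 1248 CPM (1134 to 1372).

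Few cells carried each sum, so these intervals understate the spread. In the medium tumor 82 cells held 50% of the Gkn1 UMIs, 84 of Gkn3, 51 of Tff1, 37 of Gkn2, 30 of Tff3 and 16 of Tff2. In cluster 6 a single cell with 808 Tff2 UMIs, together with the next 2, held 55.7% of the cluster's Tff2. A UMI of Tff2 was still seen in 49.6% (43.1 to 56.1) of cluster 6 and 42.1% (36.3 to 48.2) of cluster 4 cells at 2500 UMIs per cell, far above the 3.78% of macrophage-like cells. In cluster 1 that share was 12.9% (9.93 to 16.3) for Tff2, and 3 cells held 53.8% of its UMIs.

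**Figure D2:**
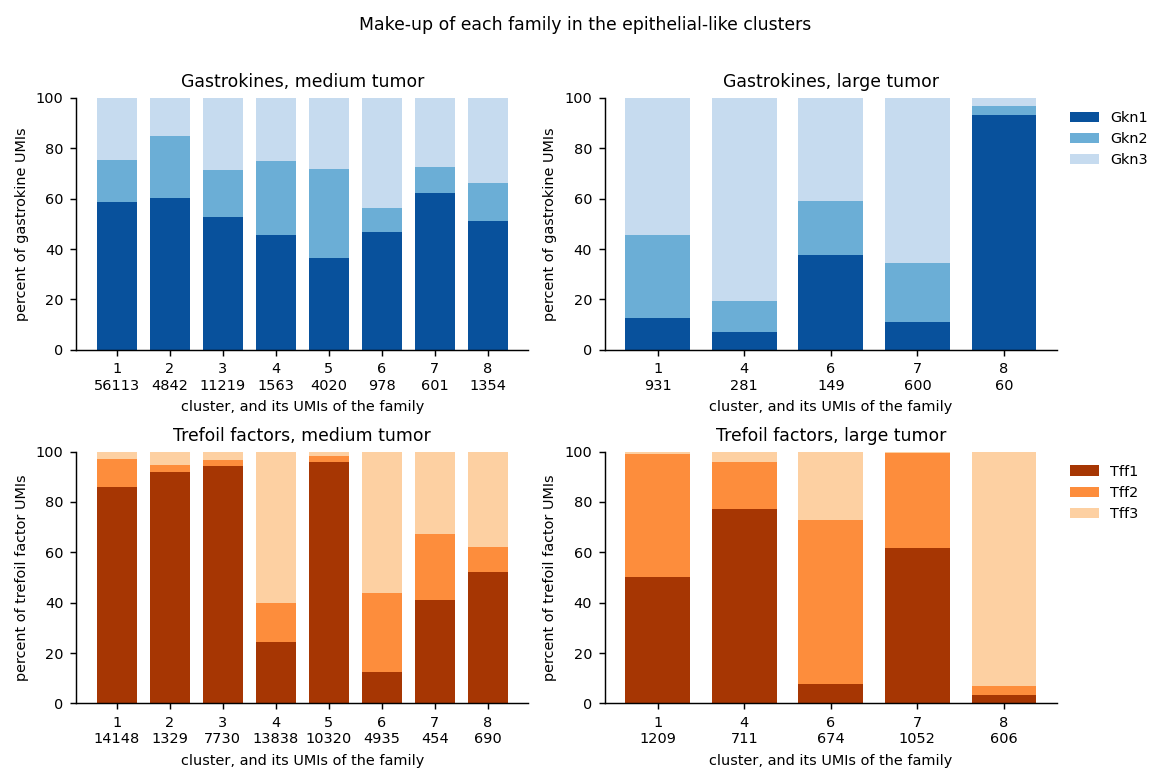
Share of each family's UMIs (percent) given by each member in the epithelial-like clusters with at least 50 UMIs of the family, gastrokines above and trefoil factors below, medium tumor left and large tumor right, with the family's UMIs under each bar. Tff1 gave 86.1% of trefoil UMIs in cluster 1 and 95.8% in cluster 5 of the medium tumor, and Tff3 60.3% in cluster 4. Gkn3 gave the largest gastrokine share in clusters 1, 4 and 7 of the large tumor.

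In the medium tumor the make-up of the trefoil family differed between epithelial-like clusters more than that of the gastrokines. Tff1 made 86.1% of the trefoil UMIs of cluster 1, 91.8% of cluster 2, 94.4% of cluster 3 and 95.8% of cluster 5. In cluster 4 Tff3 made 60.3% and Tff1 24.5%, and in cluster 6 Tff3 made 56.4%, Tff2 31.2% and Tff1 12.4%. Among gastrokines Gkn1 led in each of the 8 epithelial-like clusters, from 36.4% of the family in cluster 5 to 62.4% in cluster 7. In cluster 5, at 36.4% Gkn1 and 35.2% Gkn2, and in cluster 6, at 46.6% Gkn1 and 43.6% Gkn3, the intervals of the leading pair overlapped.

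A cell was called high for a family when the family's 3 genes together made up at least 10 per 10000 of its UMIs, which is a range and not a cell type. In the medium tumor 751 cells were high for gastrokines, 797 for trefoil factors and 345 for both. Near the limits, between 5 and 20 per 10000, lay 354 cells for gastrokines and 407 for trefoil factors, on both sides of the limit. Gastrokine-high cells made up 86.9% of cluster 1, 45.2% of cluster 3 and 24.0% of cluster 5, and 5.46% of cluster 6. Trefoil-high cells made up 59.3% of cluster 4 and 55.0% of cluster 6, where 145 of 166 and 123 of 131 such cells were not gastrokine-high. They also made up 47.6% of cluster 5, 42.4% of cluster 1 and 34.9% of cluster 3. Cluster 1 held the most of them, 191 cells, and 177 of these were gastrokine-high as well, as were 50 of 127 in cluster 5 and 51 of 102 in cluster 3. In cluster 7, 2.53% of cells were gastrokine-high and 3.80% trefoil-high, and in cluster 8 5.70% and 3.07%.

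**Figure D3:**
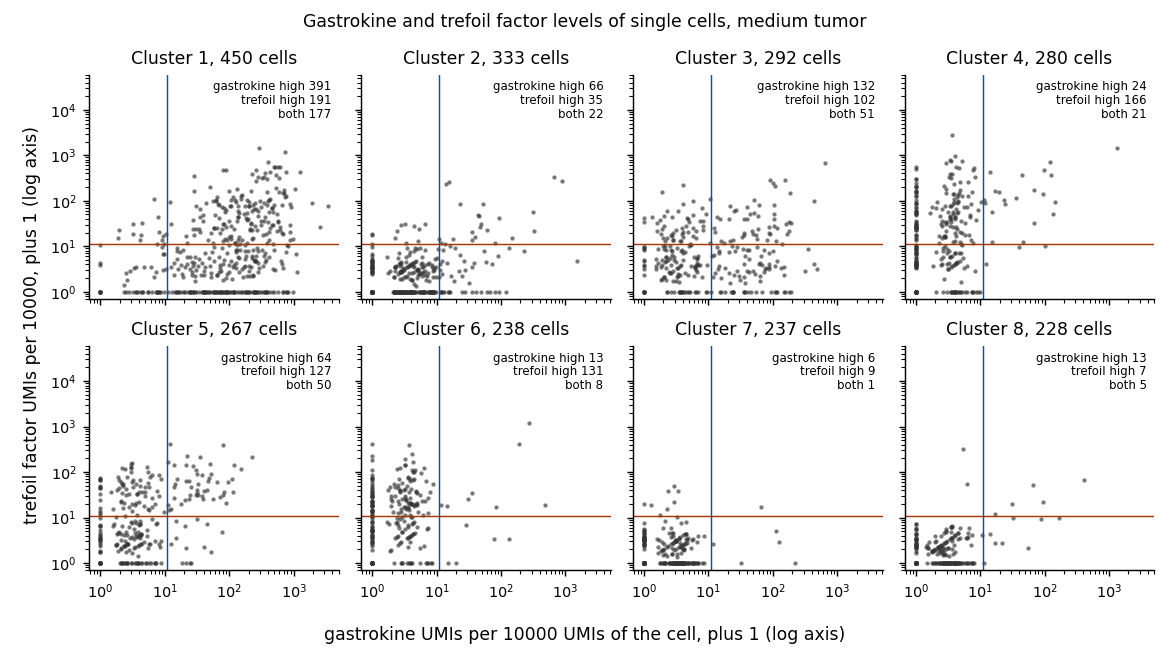
Trefoil factor against gastrokine UMIs per 10000 UMIs (plus 1, both axes log) for each cell of the 8 epithelial-like clusters of the medium tumor, with lines at 10 per 10000 and the counts of cells above them. Cluster 1 lies to the right, with 391 of 450 cells gastrokine-high, and clusters 4 and 6 lie up the left side, with 166 and 131 trefoil-high cells of which 21 and 8 were also gastrokine-high. Cluster 1 held 191 trefoil-high cells, 177 of them gastrokine-high too, so the families overlap there.

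Pairs of genes were counted in the same way over the 2325 epithelial-like cells of the medium tumor, taking 10 per 10000 for each gene. Of 271 cells high in Gkn2, 257 (94.8%) were also high in Gkn1, which was 44.7% of the 575 cells high in Gkn1. Of 447 cells high in Gkn3, 365 (81.7%) were high in Gkn1. Of 486 cells high in Tff1, 256 (52.7%) were also high in Gkn1 and 41 (8.44%) in Tff3, with r over cells of 0.41 and 0.03. Tff3 stood apart, since 14 of its 231 high cells were high in Gkn1, while 49 of the 129 cells high in Tff2 were also high in Tff3. Over the 9 epithelial-like and unnamed clusters, log2 levels of Gkn1 and Gkn3 had a Pearson r of 0.95, Tff2 and Tff3 one of 0.88, and Gkn1 and Tff3 one of -0.17. These points share 1 library, and the figures describe these clusters alone. In the large tumor Tff2 did not go with Tff3. Over 7 such clusters its r was 0.09 with Tff3 and between 0.83 and 0.89 with each of the other members. Of 107 epithelial-like cells high in Tff2 there, 9 were high in Tff3 and 66 in Gkn3.

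Outside the 6 members, which were left out of the candidates, the genes whose levels over single epithelial-like cells of the medium tumor were most like Gkn1, by Pearson r of log(1 + UMIs per 10000) over 2325 cells, were Gpx2 (0.56), a glutathione peroxidase of gut epithelium, Mcpt2 (0.52), Fxyd3 (0.51), Cftr (0.50) and Oat (0.50). Among the members themselves Gkn1 had a higher r with Gkn2 (0.75) and Gkn3 (0.71). Gkn3 shared Gpx2, Oat and Fxyd3 in its list and added Agr2 (0.52), a disulfide isomerase of mucus-making cells. The list of Tff3 held none of these, and was led by Ly6d (0.61), Muc3 (0.57), a membrane mucin, and Dmbt1 (0.54), a secreted scavenger protein. Tff2 shared Dmbt1 (0.44) and Ly6d (0.42) with it. For Tff1 the first genes outside the members were Ociad2 and Prap1 at 0.37, under its r of 0.48 with Gkn2 and 0.41 with Gkn1. Cells share depth and sort into the same clusters, so these r values describe the cells and nothing more.

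Gene lists for gut states, chosen with earlier results of these data known, were set beside the members. Listed genes counted as measured with at least 20 UMIs in epithelial-like cells, whereas the all-gene values beside them cover genes with at least 200 UMIs. The floors differ, so these shares are not a matched background. In cluster 1 of the medium tumor the 10 measured gastric pit genes had a median log2 difference to the other epithelial-like cells of 0.67. Of these 10 genes, 1 was at least 2-fold up. Over 7313 genes the median was -0.05 and 1.41% were that far up. In cluster 5, 2 of 10 pit genes were at least 2-fold up, beside 0.656% of all genes. Aqp5, a water channel, stood at 408 CPM in cluster 1 and Psca at 472 CPM, although Psca was higher in cluster 5 at 555 CPM. Muc5ac, the pit cell mucin that Tff1 accompanies in the stomach, was scarce at 15.3 CPM (11.1 to 20.4) in cluster 1, where Tff1 stood at 4136 CPM, and was at 0.644 CPM in cluster 4. Muc6, the neck and gland mucin that Tff2 accompanies, was highest in cluster 1 at 120 CPM and reached 18.7 CPM in cluster 4, where Tff2 was highest. The 3 measured neck and gland genes had a median log2 difference of 1.88 in cluster 1, with 2 of 3 at least 2-fold up. Of them Pgc, a pepsinogen, stood at 46.2 CPM in cluster 1. The parietal cell acid pump gene Atp4b, also on the list, was at 0 UMIs in the medium tumor.

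In cluster 4, the Tff3 cluster, the 6 measured goblet genes had a median log2 difference of 0.96 and 3 of 6 were at least 2-fold up, beside 2.57% of all genes and a median of -0.13. The same list was nearly as high in cluster 1, at a median of 0.82 with 3 of 6 at least 2-fold up, so it does not set cluster 4 apart from the gastrokine cluster. Spink4 was at 417 CPM there, Fcgbp, a mucus binding protein, at 92.8 CPM and Agr2 at 1874 CPM. The goblet mucin Muc2, partner of Tff3 in the intestine, was at 0 UMIs in cluster 4, which allows up to 1.93 CPM, and no epithelial-like cluster of the medium tumor had more than 1 UMI of it. Dmbt1, known to bind trefoil factors, was at 3570.5 CPM in cluster 4 and 6724 CPM in cluster 6, and at 841 CPM in cluster 1. Of the proposed trefoil receptors, Cxcr4 was at 24.6 and 31.8 CPM in the macrophage-like clusters 9 and 13 and at 3.72 CPM or less in the epithelial-like clusters, and Ackr3 at 31.9 CPM or less in the latter. Other BRICHOS genes did not follow the gastrokines, Itm2b being spread between 839 and 1690.3 CPM over the 8 clusters and Sftpc at 0 UMIs.

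Of 16 measured transcription factors of the gut lineage, 3 were at least 2-fold up in cluster 1, beside 1.41% of all genes. Their median log2 difference there was 0.32, beside -0.05 over all genes. In cluster 6, 2 of 16 were at least 2-fold up, beside 3.98% of all genes. Spdef, which drives goblet and mucous cell fate, was highest in cluster 1 at 71.3 CPM and at 21.9 CPM or less in the other 7 clusters. Creb3l4 showed the same order at 37.7 CPM against 13.3 CPM or less. Foxq1, known to control Muc5ac in the stomach, was at 260.5 CPM in cluster 1 and between 68.1 and 152 CPM in the other 7 clusters. Sox2, a stomach factor, was at 0 UMIs in 7 of the 8 clusters, and Cdx2, an intestinal factor, at 6.11 CPM or less in all 8.

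In the large tumor the members were again read mainly in epithelial-like cells. Tff1 was highest at 1242 CPM (1186 to 1299), then Tff2 at 1044 CPM (993 to 1097), Gkn3 at 789 CPM (745 to 835), Tff3 at 550 CPM (513 to 589), Gkn2 at 345 CPM (316 to 376) and Gkn1 at 209 CPM (187 to 233). Macrophage-like cells held between 1 and 11 UMIs of each gene. Against all other cells 6 of 6 members were higher, beside 52.7% of 1547 genes, and 6 of 6 by at least 2-fold, beside 8.02%. The ratios ran from 5.33 for Tff3 to 126 for Tff2, the latter resting on 6 UMIs outside the epithelial-like cells. The sizes depended on how cells were named: with each cell named by its own markers, the log2 ratio went from 6.76 to 3.13 for Tff2, from 4.67 to 2.28 for Gkn1 and from 2.40 to 3.77 for Tff3, which then had the highest of the 6. Without the unnamed cluster 2 the ratio of Tff3 was 19.3 in place of 5.33. Cluster 2, unnamed with 6 of 12 mesenchymal genes, held 96 member UMIs in 272 cells, of which 67 were Tff3 and 45 of these were in 1 cell.

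Cluster 7 of the large tumor, 66 cells led by Cxcl5, Wfdc18, Mal and Ltf, was the richest in Tff1 at 3864 CPM (3573 to 4173) and Gkn3 at 2334 CPM (2109 to 2577). Cluster 1, 300 cells led by Fxyd3, followed with 1939 CPM of Tff1 and 1616 CPM of Gkn3. Gkn2 did not separate these clusters, at 987 CPM (880 to 1104) in cluster 1 and 845 CPM (712 to 997) in cluster 7, and 3 cells held 69.3% of it in cluster 1. Tff2 was highest in cluster 6 (led by Lgals2, Dmbt1 and Agr2) at 3332 CPM (3027 to 3659), then in cluster 7 at 2352 CPM (2126 to 2596) and cluster 1 at 1882 CPM. With each cell thinned to 500 UMIs that order did not hold, at 2887 CPM in cluster 6 and 2970 CPM in cluster 7. A Tff2 UMI was then seen in 17.0% (10.4 to 25.5) of cluster 6 and 31.8% (20.9 to 44.4) of cluster 7 cells. In cluster 7 the 8 measured gastric pit genes had a median log2 difference of 1.13, with 5 of 8 at least 2-fold up beside 2.65% of 1056 genes, Cldn18 being at 351 CPM. Muc5ac was at 0 UMIs in the epithelial-like clusters of the large tumor, and Muc6 at 109 CPM in cluster 1 and 95.3 CPM in cluster 7.

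Tff3 of the large tumor lay in cluster 8, whose 56 cells were led by Zg16, Fcgbp, Sprr2a3, Lypd8 and Apoa4 and carried both goblet and enterocyte genes. It stood at 10792 CPM (9919 to 11722) there, 7.73-fold (6.53 to 9.18) above cluster 6, and the cluster held 62.1% of the tumor's Tff3 UMIs with 3.65% of its cells. The sum came from a minority of the cluster, 22 of 56 cells having a UMI (17 of 56 after thinning to 500 UMIs), and 3 cells held 33.9% of it. The other trefoil factors were at 383 CPM (Tff1) and 441 CPM (Tff2) in it. The 7 measured goblet genes had a median log2 difference of 3.79 in that cluster. Of them 6 were at least 2-fold up, beside 12.0% of the 1056 genes with at least 200 UMIs. Zg16, a goblet cell lectin, was at 11616 CPM, Muc2 at 958 CPM and the enterocyte gene Fabp1 at 4946 CPM. Over 947 cells the genes outside the members most like Tff3 were Zg16 (r of 0.66) and Spink4 (0.63), whereas Agr2 headed the list of each of the other 5 members, with r from 0.29 for Gkn1 to 0.54 for Gkn3. Some members were closer to one another than to Agr2, with an r of 0.63 for Gkn1 and Gkn2, 0.49 for Tff1 and Gkn2, and 0.52 for Tff2 and Gkn3. Cluster 5, with 10 of 12 enterocyte genes, held 47 member UMIs in 206 cells, 34 of them Tff3.

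Gkn1 parted from the other gastrokines in that goblet and enterocyte cluster. It had 1073 CPM (811 to 1394) there, its highest in the large tumor, from 56 UMIs in 17 of 56 cells, while Gkn2 and Gkn3 had 2 UMIs each. Gkn1 made 93.3% of the 60 gastrokine UMIs of cluster 8, against 37.6% (29.8 to 45.9) in cluster 6, 12.5% in cluster 1 and 11.0% in cluster 7. No cell of cluster 8 held more than 11 Gkn1 UMIs.

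Between the tumors Gkn1 differed most of the 6, at 2513 CPM in epithelial-like cells of the medium and 209 CPM in those of the large tumor. On the log2 scale the large tumor stood at -3.58 (-3.75 to -3.43) for Gkn1, -1.26 (-1.39 to -1.14) for Gkn2, -0.65 for Tff1, -0.51 for Gkn3 and -0.33 (-0.43 to -0.23) for Tff3 against the medium tumor, and at 1.69 (1.61 to 1.77) for Tff2. The median of the 7566 genes compared was -0.15 and that of the members -0.58. Tff3 was the member whose sign did not hold, at 0.08 with equal depth. At 2-fold, 2 of 6 members were lower, Gkn1 and Gkn2, beside 18.2% of the genes, and 1 of 6 was higher, Tff2, beside 5.97%. With 1 tumor of each size, tumor size cannot be told apart from the animal, the library or its depth. In these sums, fewer cells with a gene and less of it per cell cannot be told apart either.

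**Figure D4:**
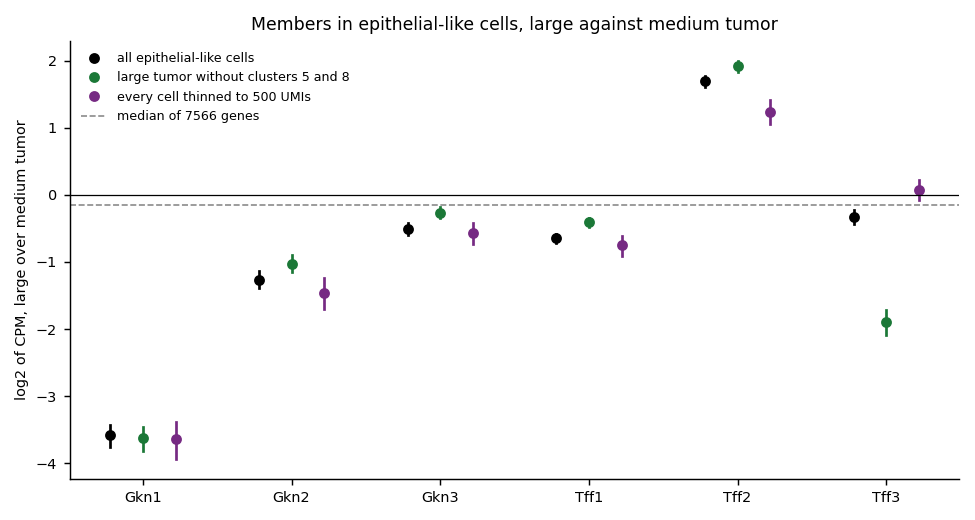
Log2 ratio of CPM in epithelial-like cells, large over medium tumor, with exact 95% intervals, for all such cells (black), without clusters 5 and 8 of the large tumor (green) and after thinning each cell to 500 UMIs (purple), the dashed line being the median of 7566 genes at -0.15. Gkn1 and Gkn2 lie below and Tff2 above 0 in all 3 settings, and Tff3 moves from -0.33 to -1.89 and 0.08.

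The order of the gastrokines differed between the tumors. Gkn1 made 56.3% (55.9 to 56.6) of gastrokine UMIs in epithelial-like cells of the medium tumor and 15.6% (14.0 to 17.2) in the large one, where Gkn3 made 58.7% (56.6 to 60.9). Tff1 led the trefoil factors in both, with 65.7% and 43.8%, while Tff2 went from 10.9% to 36.8%. A ratio within a family does not depend on the total of the other genes. Leaving out clusters 5 and 8 of the large tumor left Gkn1 at 13.2% of gastrokine UMIs but took Tff3 from 19.4% to 6.45% of trefoil UMIs.

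The share of cells with a UMI was compared after depth was made equal. With each cell thinned to 500 UMIs, Gkn1 was seen in 26.3% (24.5 to 28.1) of epithelial-like cells of the medium and 5.28% (3.94 to 6.90) of the large tumor. Tff2 was seen in 6.75% (5.77 to 7.85) and 10.9% (8.96 to 13.0), Gkn2 in 11.8% and 4.12%, and Tff1 in 20.9% and 13.9%. For Gkn3 the shares of 19.2% (17.6 to 20.9) and 16.3% (14.0 to 18.8) overlapped. Tff3 was seen in fewer cells of the large tumor, 4.96% (3.67 to 6.55) against 10.5% (9.28 to 11.8), although its thinned level was 1079 CPM against 1025 CPM. Unthinned, Gkn1 was read in 68.9% of the medium and 9.08% of the large tumor's epithelial-like cells. Macrophage-like cells thinned alike had a Gkn1 UMI in 5.88% (3.25 to 9.67) of cells in the medium and 0.791% in the large tumor, with median depths of 688 UMIs in macrophage-like and 1090 UMIs in epithelial-like cells of the large tumor before thinning.

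**Figure D5:**
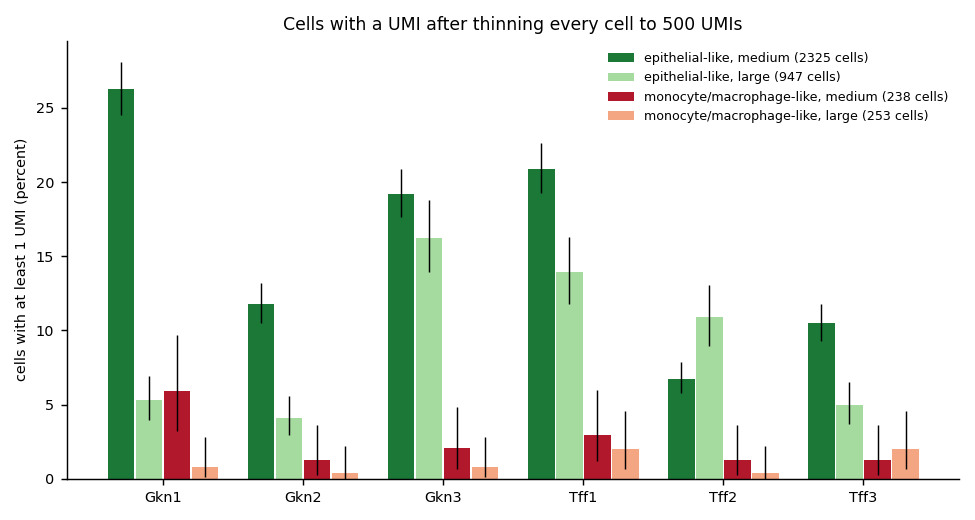
Percent of cells with at least 1 UMI of each gene after thinning every cell to 500 UMIs, for epithelial-like (green) and monocyte/macrophage-like (red) cells of the medium (dark) and large (light) tumor, with exact 95% binomial intervals. Gkn1 goes from 26.3% to 5.28% of epithelial-like cells and Tff2 from 6.75% to 10.9%, with macrophage-like cells at 5.88% or less.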

How the data were processed

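Single-cell suspensions of 2 KPC pancreatic tumors were profiled by the authors with the 10x Genomics Chromium 3′ v2 chemistry. The authors deposited raw UMI counts per gene and cell barcode, without normalization, from Cell Ranger on mm10, per the labels. The version, the annotation and the barcode filter are not given in the sources used here. The members and gene lists were chosen with earlier results of these data known. Each tumor was clustered with Seurat 5.3.0 in R 4.3.3 (2000 variable genes, 10 principal components, resolution 0.8), the 6 members left out of the variable genes. A marker counted in a cluster with 10% of its cells and 25% of the highest cluster's level, and a class needed 3 markers. A cluster stayed unnamed where another class with 3 markers also reached 60% of its list. UMIs were summed per cluster, class and tumor. Intervals are exact Poisson, binomial or conditional binomial, and a count of 0 allows 3 counts. Log2 ratios had 1 UMI added to each sum, for genes with at least 200 UMIs. List differences had 10 CPM added, for listed genes with at least 20 UMIs, beside all genes with at least 200 UMIs. Doublets were scored with Scrublet in scanpy 1.11.5, and TMM factors came from edgeR 4.0.16. Mitochondrial genes are listed at 0 UMIs. Named genes were the members, the listed genes, leading genes of clusters (10 largest ratios, in at least 25% of cells) and the 5 genes most like each member. The log2 ratio between tumors, its interval and the ranking of like genes were tested on simulated data. Clustering, naming of clusters, high-cell calls and list counts were not. One allele of the mice is not reported here.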

Additional observations from a re-analysis of the deposited data

How the results depend on the processing

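The count of members higher in epithelial-like cells stayed at 6 of 6 in both tumors under every alternative run: members kept in the clustering, resolution 0.4 or 1.2, 20 principal components, each cell named by its own markers, cells under 500 genes or the top 5% of Scrublet scores left out, thinned cells and, added after seeing the data, unnamed clusters left out. The size of those ratios moved more, Tff2 from 0.40 to 3.43 in the medium tumor and 3.13 to 7.19 in the large one on the log2 scale. The count of members lower in the large tumor was 5 of 6 and became 4 when both tumors were thinned to the same 500 UMIs per cell, where the Tff3 log2 ratio turned from -0.33 to 0.0754 (the cause was not tested). Tff3 stood at -1.89 without clusters 5 and 8 of the large tumor and at -1.76 without cells under 500 genes, the former chosen after seeing the data, as was leaving out cluster 8 of the medium tumor. Tff2 ranged from 1.17 to 1.92, Gkn1 from -4.01 to -3.42, Gkn2 from -1.68 to -1.03, Gkn3 from -0.96 to -0.27 and Tff1 from -1.05 to -0.41 over 13 settings. TMM scaling raised every ratio by 0.17. With members kept in the clustering, 20 components or resolution 0.4, the epithelial-like class of the large tumor grew from 947 to 1219 cells. That of the medium tumor fell from 2325 to 2054 cells without the highest Scrublet scores and to 2099 at resolution 1.2. At limits of 20 and 5 per 10000 in place of 10, gastrokine-high cells numbered 638 and 992 and trefoil-high cells 596 and 1003. No paired analysis was possible because each tumor is 1 pooled table, and for the same reason no technical replicate could be left out. In the shallower large tumor Gkn1 rests on 321 UMIs, and 12 cells hold 50% of them.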
